A study of Mus musculus with 16 samples.

Results

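Unstimulated DPP4-positive and DPP4-negative progenitors of mouse subcutaneous (inguinal) adipose tissue were compared across all genes in 8 bulk RNA-seq libraries, 4 from each subpopulation. The members are the 13505 genes, of 27179 entries in the deposited table, whose normalized count reached 10 in at least 4 of the 8 libraries. The cells were PDGFRb+ adipose cells of C57BL/6 mice, isolated by flow cytometry and labelled by subpopulation as DPP4_pos APC or DPP4_neg APC (adipocyte progenitor cells). Both were cultured in medium with 10% FBS and antibiotics and then held for 4 h with PBS, the vehicle. The labels give no age, sex or passage, and do not say whether the 4 libraries of a group came from separate mice or cultures, so every p-value is about library-to-library spread, which may be technical. The other 8 libraries of the series came from the same 2 subpopulations after 4 h of isoproterenol, a beta-adrenergic agonist, at a dose labelled as 10 mM, whose unit could not be checked. They entered no test of the vehicle cells, and some values from them are set beside the vehicle values at the end. PDGFRb+ is the sort gate named for every group, so Pdgfrb itself, and Dpp4 between the groups, describe the sort.

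Adipose progenitors are fibroblast-like cells that build the tissue's matrix and give rise to new fat cells. In subcutaneous fat of the mouse, cells carrying DPP4 (dipeptidyl peptidase 4, a cell-surface protease) lie in the collagen-rich sheets around and between fat lobules. They are known for expressing Pi16, Cd34 and matrix genes, and are often placed upstream of DPP4-negative preadipocytes that express more Pparg. Cultured fibroblasts can also build contractile fibres, whose genes SRF and its cofactors control, and many answer type I interferon through the transcription factors STAT2 and IRF9.

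The deposited values are normalized counts, whose size factors could be recovered from the values, and they came from 16479650 to 28627223 reads in genes for the DPP4-negative libraries and from 17189166 to 20425332 for the DPP4-positive ones. The first principal component separated the subpopulations and held 91.7% of the variance, and the second held 1.88%, with DPP4-positive replicate 1 and DPP4-negative replicate 4 at its far end. Pearson's r across genes between libraries of a group was 0.994 to 0.996, and the mitochondrial share of reads was 1.62% to 1.88% in all 8 libraries. In bulk RNA, fewer cells of a type and less RNA per cell cannot be told apart.

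Of the 13505 genes, 4802 (35.6%) were higher and 5233 (38.7%) lower in DPP4-positive cells at an adjusted p below 0.05, together 74.3% (limma on log2(normalized count + 1), Benjamini-Hochberg adjustment over all genes tested). The 4 values of one subpopulation lay entirely outside the 4 of the other for 9290 genes (68.8%). Since most genes passed, the size of a difference says more than its call. Among the lists below, integrin subunits (70% called), Notch genes (72.2%) and thermogenic genes (73.7%) were also near or under the share of all genes. So were markers of macrophages and leukocytes (50%), epithelium (50%) and skeletal muscle (75%). Endothelial markers (77.8%), immediate early genes (77.8%), adipogenic transcription factors (79.3%) and TGF-beta and activin genes (80%) were only somewhat above it. At least 2-fold differences were found for 1154 genes that were higher (8.54%) and 931 that were lower (6.89%), and 86 genes were at least 16-fold higher and 36 at least 16-fold lower. The median log2 difference of all genes tested was -0.01. Each log2 difference is given as DPP4-positive minus DPP4-negative with limma's standard error, each p is adjusted over all genes tested, and folds are on the same log2(normalized count + 1) scale, where the added 1 shrinks the change of genes with low counts.

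**Figure D1:**
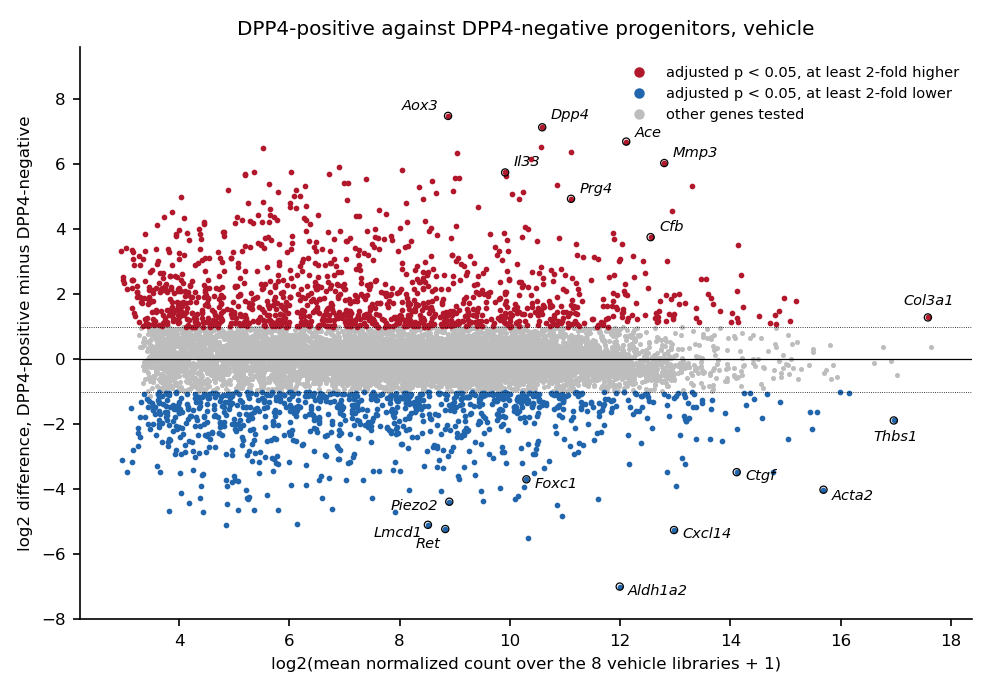
Each point is 1 of the 13505 genes tested, with its mean level over the 8 vehicle libraries on the horizontal axis and its log2 difference between subpopulations on the vertical axis. Red points are the 1154 genes called and at least 2-fold higher in DPP4-positive cells, blue points the 931 called and at least 2-fold lower, grey points all others, and the dotted lines mark 2-fold. Dpp4 and Ace lie near the top at 140-fold and 104-fold higher, Aldh1a2 at the bottom at 128-fold lower, and several of the most abundant genes (Thbs1, Acta2) lie below the 2-fold line.

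Dpp4 (chr2:62330073-62412315, GRCm38) had 15.2, 23.4, 24.6 and 21 normalized counts in the DPP4-negative libraries and 2853, 2937, 3227 and 3194 in the DPP4-positive ones, 140.3-fold higher (log2 difference 7.13 ± 0.11, adjusted p = 1.16e-17). The labels of all 8 libraries matched this gene. Of 24 tested markers of DPP4+ interstitial progenitors, 22 were higher, 19 of them at least 2-fold, with a median log2 difference of 2.01. These counts and the median include Dpp4 itself, whose direction the sort fixed. Anxa3, an annexin, was the only lower one (log2 difference -0.31 ± 0.03), and Has1, a hyaluronan synthase, did not pass (log2 difference 0.56), but did without DPP4-negative replicate 1 (0.82, adjusted p = 0.0118). Of 19 tested markers of committed preadipocytes, 11 were higher and 7 lower, with a median of 0.26. Icam1, the surface protein used to sort such cells, was itself 1.2-fold higher in the DPP4-positive libraries (adjusted p = 2.12e-05), as was Dlk1, an inhibitor of adipogenesis, at 2.56-fold higher. Cxcl14, a chemokine, was lower, with 15628, 14645, 14658 and 17928 against 392, 455, 368 and 426 normalized counts (log2 difference -5.26 ± 0.06, adjusted p = 1.24e-18), and Mfge8, a milk fat globule protein, and Fabp4, a fatty acid carrier, were 3.13-fold lower and 2.92-fold lower. The sum over the list was 182200 to 194137 in DPP4-negative and 129822 to 133679 in DPP4-positive libraries, so the list's median and its sum differed in direction. Of 11 tested markers of CD142+ progenitors 7 were higher and 3 lower (median 0.21), and F3, which encodes CD142 itself, had 6742, 6461, 6571 and 6677 against 3471, 3020, 3090 and 3396 (log2 difference -1.03 ± 0.04, adjusted p = 8.17e-13). Of 20 tested genes of PDGFRb+ stromal identity 12 were higher and 6 lower (median 0.66), with Ly6a (SCA-1) 5.55-fold higher and Fap, a protease of activated fibroblasts, 6.16-fold higher. Pdgfrb, the gene of the sort gate, is counted in that list.

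Over all genes, the largest differences held enzymes and structural proteins of muscle beside the sort marker. The gene with the highest log2 difference in the table was Aox3, an aldehyde oxidase (chr1:58113135-58202221), at 1.52, 4.87, 7.84 and 4.74 against 893, 974, 937 and 936 normalized counts. The Aox3 groups were far apart (log2 difference 7.48 ± 0.26, adjusted p = 1.94e-13). Duox1, which makes hydrogen peroxide, had 1.52, 2.92, 3.36 and 4.74 against 191, 207, 200.2 and 223 (log2 difference 5.70 ± 0.21, adjusted p = 5.38e-13). Cpxm1, a secreted carboxypeptidase-like protein, had 518, 465, 516 and 484 against 20401, 19615, 19231 and 19289, 39.6-fold higher (log2 difference 5.31 ± 0.04). Pla1a, a phosphatidylserine lipase, was 13-fold higher. At the other end Myom1, myomesin of the sarcomere's M band, had 2378, 2603, 2543 and 2487 normalized counts in DPP4-negative and 65.4, 58.7, 53.1 and 42.2 in DPP4-positive libraries (log2 difference -5.50 ± 0.09, adjusted p = 4.37e-17). Pawr, a pro-apoptotic regulator, and Fgd3, a guanine nucleotide exchange factor, were 20.8-fold lower and 26-fold lower. All of these genes had groups that did not overlap. Thbs1, a matricellular glycoprotein among the most abundant transcripts, had 202135, 199490, 201288 and 201241 against 58637, 49924, 51959 and 57361 normalized counts (log2 difference -1.89 ± 0.05).

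The neurotrophic receptors divided between the subpopulations. Of 35 tested genes of neurotrophic factors and axon guidance, 15 were higher (10 at least 2-fold) and 14 lower (11 at least 2-fold), with a median of -0.03. Ret, the receptor tyrosine kinase that binds GDNF-family ligands together with a GFRA co-receptor, had 868, 939, 902 and 830.2 normalized counts in DPP4-negative libraries and 22.4, 23.8, 23.9 and 20.3 in DPP4-positive ones. It was 37.6-fold lower (log2 difference -5.23 ± 0.08, adjusted p = 7.78e-18). Gfra1, the co-receptor for GDNF, ran the other way, at 17.5, 21.4, 15.7 and 18.3 against 267, 237, 261 and 248 (log2 difference 3.73 ± 0.11, adjusted p = 2.99e-14). Each subpopulation thus had a high level of one of these 2 receptor parts and a low level of the other, with no overlap between libraries for either gene. Ngfr, the low-affinity neurotrophin receptor, had 319.5, 485, 391 and 326 against 4467, 4351, 4086 and 4467, 11.6-fold higher (log2 difference 3.53 ± 0.09, adjusted p = 7.75e-15). Bdnf, a neurotrophin, was lower in DPP4-positive cells, at 241, 260, 256 and 269 against 50.2, 45.3, 49.6 and 43.1 (log2 difference -2.42 ± 0.08). Lif, a cytokine of the interleukin-6 family, was 4.82-fold lower (adjusted p = 2.13e-14). Among guidance cues, Ntn1 (netrin-1) was 6.74-fold higher and its receptor Unc5b 4.02-fold lower. Opcml, a neuronal adhesion protein of the IgLON family, was 19.3-fold higher.

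Interleukin-33 and its receptor were both higher in DPP4-positive cells. Il33, an alarmin that acts on group 2 innate lymphoid cells and regulatory T cells of fat, had 38.1, 33.1, 34.7 and 31.8 against 2031, 1928, 1909 and 1704 normalized counts (log2 difference 5.74 ± 0.07, adjusted p = 1.05e-18). Il1rl1, which encodes the receptor ST2 and a soluble form that binds the cytokine, had 200.5, 83.7, 103 and 204 against 2682, 2250, 2165 and 2213 (log2 difference 4.07 ± 0.21, adjusted p = 4.69e-11). The DPP4-negative libraries varied more than 2-fold among themselves for Il1rl1, and the highest of them was far below the lowest DPP4-positive value. The counts are per gene and do not separate the receptor from the soluble form. Over the whole list of 44 tested chemokines and cytokines, 26 were higher and 12 lower, with a median of 0.63. Ccl8 and Cxcl13, which attract monocytes and B cells, were 47.1-fold higher and 18.9-fold higher. Cx3cl1, a membrane-bound chemokine, was 4.12-fold lower, and Tnfrsf11b, the decoy receptor osteoprotegerin, 19.9-fold lower (1904, 2344, 2201 and 1870 against 134, 90.7, 91.2 and 100.5). Cxcl12, which retains blood-forming cells, was 2.27-fold higher, and Il6 2.25-fold lower. Ccl2, a monocyte attractant, did not pass, at 910.5, 810.1, 771 and 997 against 992, 709, 708 and 760.4 (log2 difference -0.15 ± 0.09, adjusted p = 0.175), and was called lower without DPP4-positive replicate 1 (log2 difference -0.26, adjusted p = 0.00242).

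Of 27 tested natriuretic, angiotensin and vasoactive genes, 16 were higher, 11 of them at least 2-fold, and 9 lower, 5 of them at least 2-fold, with a median of 0.66. Ace, angiotensin-converting enzyme (chr11:105967948-105989964), had 84.6, 83.7, 84.6 and 81.2 against 8995, 8568, 8567 and 8898 normalized counts, 104-fold higher (log2 difference 6.69 ± 0.03, adjusted p = 2.82e-23). The spread within each subpopulation was small beside this difference. Anpep and Enpep, the aminopeptidases that shorten angiotensin peptides further, were 13.6-fold higher and 5.01-fold higher. Agtr2, the type 2 angiotensin receptor, had 13, 11.7, 10.6 and 12.9 against 211, 204, 191 and 176 (log2 difference 3.91 ± 0.12, adjusted p = 4.62e-14). Agt, which encodes the precursor angiotensinogen, was lower instead, at 3322, 3650, 3726 and 3247 against 883, 989, 936 and 986 (log2 difference -1.88 ± 0.05). Npr3, the clearance receptor for natriuretic peptides, and Pde5a, a cGMP phosphodiesterase, were 3.43-fold lower and 4.36-fold lower.

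Of the enzymes that make retinoic acid, one was much lower and another higher in DPP4-positive cells. Aldh1a2 (chr9:71215789-71296243), one of the dehydrogenases that make retinoic acid, had 7609, 8535, 8426 and 7769 normalized counts in DPP4-negative libraries and 61.8, 61.7, 71.7 and 54.9 in DPP4-positive ones, 128-fold lower (log2 difference -7.00 ± 0.06, adjusted p = 4.95e-20). Its paralogue Aldh1a1 had 1895, 1949, 2019 and 1848 against 5685, 5790, 5879 and 5993, 3.03-fold higher (adjusted p = 1.54e-16). Both differences were far outside the spread of the libraries. Cyp26b1, which degrades retinoic acid, was lower, at 2954, 3006, 3081 and 2991 against 644, 594, 558 and 709 (log2 difference -2.27 ± 0.05, adjusted p = 2.3e-15). Rarb, a retinoic acid receptor, was 4.13-fold lower and Tgm2, a transglutaminase, 5.61-fold lower. Rarres2, named as a retinoic acid receptor responder and encoding the adipokine chemerin, was 4.54-fold higher. Crabp1, a retinoic acid carrier, did not pass (log2 difference -0.06 ± 0.15, adjusted p = 0.736). Of 23 tested genes of the list, 9 were higher (2 at least 2-fold) and 10 lower (8 at least 2-fold), with a median of -0.06.

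Several growth factor ligands were lower in DPP4-positive cells while some receptors of the same families were higher. The fibroblast mitogens Pdgfa and Pdgfc were 4.22-fold lower and 3.02-fold lower, while Pdgfra, the receptor of both, had 13335, 13559, 13491 and 13018 against 33859, 33346, 33371 and 33607 normalized counts (log2 difference 1.33 ± 0.02, adjusted p = 1.21e-16). Pdgfrb, the other PDGF receptor and the gene of the sort gate, was called lower, by less than 2-fold. Hbegf, an EGF-family ligand, was 3.16-fold lower, and Egfr had 3430, 3230, 3357 and 3176 against 13391, 12669, 12391 and 12972 (log2 difference 1.96 ± 0.03). Met, the receptor of hepatocyte growth factor, was 2.26-fold higher. Inhba, which encodes the activin A subunit, had 3106, 2986, 2688 and 3259 against 403, 326, 296 and 334 (log2 difference -3.15 ± 0.08, adjusted p = 2.12e-15), and Tgfb3 3274, 3464, 3611 and 3391 against 614, 625, 659 and 621 (log2 difference -2.45 ± 0.04, adjusted p = 6.34e-18). The TGF-beta receptors Tgfbr2 and Tgfbr3 were 2.32-fold higher and 2.35-fold higher, and values of the activin receptors are not given here. Counted over whole lists, the split was even: 16 higher and 16 lower of 36 tested PDGF, FGF and EGF family genes (median 0.03), and 9 higher and 11 lower of 25 TGF-beta and activin genes (median -0.02). Fgf7, a mitogen of epithelia, passed the test with a log2 difference of only 0.21. Fgf13, an intracellular member of the FGF family, was 12.7-fold lower.

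IGF-binding proteins differed by member. Igfbp3, the main carrier of IGF in blood, had 156, 221, 200.5 and 154 against 1648, 1934, 1811 and 1899 normalized counts (log2 difference 3.33 ± 0.09, adjusted p = 1.86e-14). Igfbp5 and Igfbp6 were 4.04-fold higher and 2.35-fold higher, whereas Igfbp2 was 7.27-fold lower. Pappa, the protease that frees IGF by cutting binding proteins, had 1738, 1790, 1697 and 1590 against 118, 97.3, 114 and 98.8 (log2 difference -3.98 ± 0.06, adjusted p = 1.97e-17). Its inhibitor Stc1 (stanniocalcin-1) was also lower, at 7092, 8401, 8254 and 6414 against 1545, 1315, 1514 and 1538 (log2 difference -2.34 ± 0.07). Igf1 itself was 1.52-fold lower and Igf2 3.52-fold lower. Of 22 tested genes of the axis, 8 were higher and 12 lower, with a median of -0.30.

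Wnt and BMP genes included members far apart in both directions. Wnt16 had 159, 159.7, 184 and 141 against 1640, 1581, 1598 and 1642 normalized counts (log2 difference 3.32 ± 0.06, adjusted p = 1.08e-16), and Axin2, a feedback target of the beta-catenin branch, 43.5, 34.1, 43.1 and 37.9 against 198, 185, 185 and 212 (log2 difference 2.27 ± 0.10, adjusted p = 5.69e-12). The secreted inhibitors Sfrp4 and Draxin and the Wnt-inactivating enzyme Notum were 8.17-fold higher, 5.63-fold higher and 4.01-fold higher. Frzb and Dkk3, also secreted inhibitors, were called lower. The receptors Fzd5 and Lgr6 were lower, Fzd5 at 2481, 2335, 2424 and 2433 against 351, 295, 306 and 325 (log2 difference -2.92 ± 0.05) and Lgr6 4.47-fold lower. Wnt5a, a ligand of the branch without beta-catenin, was 1.62-fold lower, and Wnt2, a marker of the DPP4+ population, 2.09-fold higher. Of 27 tested ligands and receptors, 11 were higher and 11 lower (median -0.04). Of 20 inhibitors and targets, 12 were higher (7 at least 2-fold) and 5 lower (1 at least 2-fold), with a median of 0.28. In the BMP list, 13 of 37 tested genes were higher (2 at least 2-fold) and 19 lower (11 at least 2-fold), with a median of -0.16. Chrdl1, a secreted BMP antagonist, had 1379, 1683, 1622 and 1228 against 5700, 6150, 6198 and 5847 (log2 difference 2.02 ± 0.07), and Grem1, another one, was 5.07-fold lower. Bmp4 was 5.31-fold lower. Id4, a target of BMP signalling, was 3.82-fold lower. Bmp7 had no read in any of the 4 DPP4-negative libraries and 95.9, 95.9, 84.1 and 83.6 normalized counts in the DPP4-positive ones, at least 168-fold higher when 3 reads over the group are taken as the limit that a count of 0 allows. By the same reckoning the scavenging chemokine receptor Ackr2 was at least 57.9-fold higher, and Slc38a11, an amino acid transporter, had no read in DPP4-positive libraries and was at least 41.7-fold lower.

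Angpt2 and its receptor gene Tek differed in opposite directions. Angpt2, a ligand of the TIE2 receptor, had 1199, 1521, 1476 and 1194 against 89.6, 88.4, 78.8 and 65 normalized counts (log2 difference -4.05 ± 0.10, adjusted p = 2.79e-15). Tek, which encodes TIE2, had 123, 143, 138 and 157 against 1038, 992, 1015 and 1005 (log2 difference 2.85 ± 0.06, adjusted p = 7.5e-16). Tek is best known from endothelial cells. Of 16 endothelial markers 9 were tested, 7 were higher, 5 of them at least 2-fold, and none was lower, with a median of 1.45. Pecam1 and Cdh5 passed the filter only through the DPP4-positive libraries, so the filter favoured their direction. With no filter all 16 were tested, 11 were higher and 1 lower. Most were at low levels: Egfl7 was 1.68-fold higher, Pecam1 had 28.7, 41.6, 42.5 and 26.2 and Cdh5 32.3, 50.5, 44.3 and 21.1 in the DPP4-positive libraries, against 8.39, 6.82, 14.6 and 6.77 and 4.58, 0.974, 6.72 and 3.38 in the DPP4-negative ones. The summed level of the markers was 277 to 318 in DPP4-negative and 1344 to 1412 in DPP4-positive libraries, most of the latter being Tek. Tek is also one of the DPP4+ interstitial progenitor markers counted above. The part of endothelial cells in the Tek difference was not tested. Of 40 tested angiogenic genes, 24 were higher (13 at least 2-fold) and 10 lower (4 at least 2-fold), with a median of 0.40. Sema3e, a repulsive vascular cue, was 12.3-fold higher and Ramp2, the co-receptor for adrenomedullin, 8.22-fold higher. Vegfa, the main endothelial growth factor, was 1.3-fold lower.

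Of 18 tested Notch genes 5 were higher and 8 lower (median -0.04), 2 in each direction at least 2-fold, with Notch4 5.1-fold lower, Notch3 1.32-fold higher, the ligand Jag1 1.38-fold lower and the target Hey1 1.69-fold lower. Of 13 tested Hedgehog genes 8 were higher, 3 of them at least 2-fold, and 3 lower (median 0.27). Gas1, a co-receptor, had 1520, 1345, 1493 and 1363 against 8124, 8088, 8179 and 8696 normalized counts (log2 difference 2.53 ± 0.04, adjusted p = 1.54e-17), while Ptch1, a receptor and target of the pathway, was 1.61-fold lower and Gli1 had too few reads to be tested. Adra2a, which couples to an inhibitory G protein, had 158, 131, 142 and 115 against 3.58, 1.49, 4.43 and 3.38 (log2 difference -5.07 ± 0.23, adjusted p = 5.56e-12), Adra1a was 5.59-fold lower, and Adrb3, the main receptor for noradrenaline in fat cells, had 1929, 2148, 1982 and 1815 against 809, 767, 817 and 703 (log2 difference -1.35 ± 0.05). Adrb1 was 2.09-fold lower at a low level. Pkia, an inhibitor of protein kinase A, was 4.86-fold lower and Adcy2, an adenylyl cyclase, 4.79-fold higher. Over the list of 41 tested adrenergic and cAMP genes 13 were higher and 23 lower, with a median of -0.31.

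**Figure D2:**
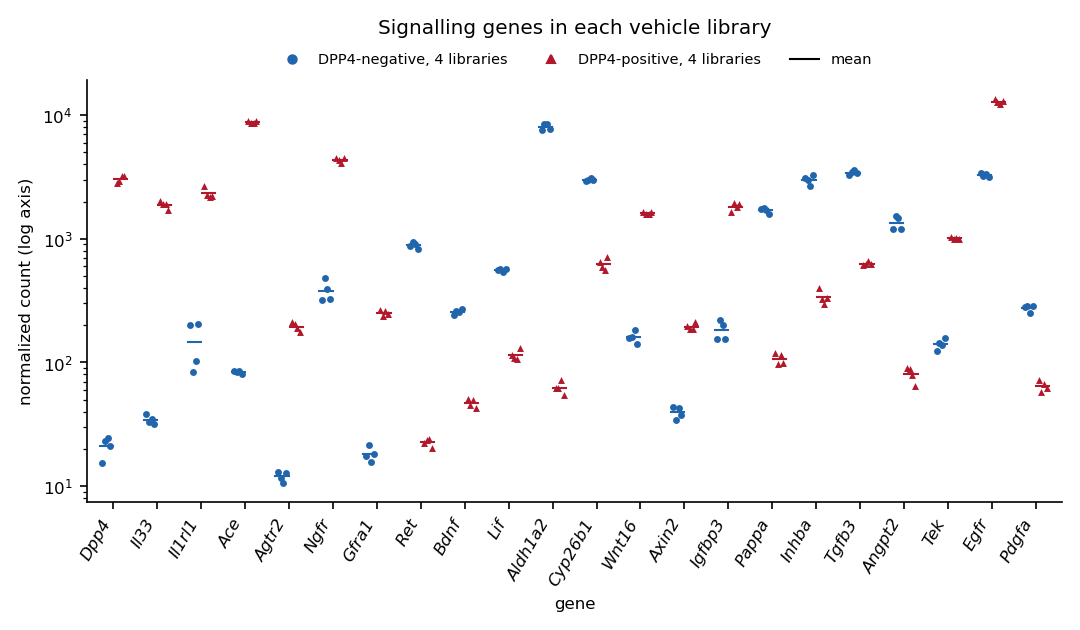
Normalized counts (log axis) of 22 signalling genes in each of the 8 vehicle libraries, circles for DPP4-negative and triangles for DPP4-positive libraries, with short lines at the group means. No gene shown has overlapping groups. The ligands Bdnf, Lif, Inhba, Tgfb3, Angpt2 and Pdgfa are lower in DPP4-positive cells and Il33 and Wnt16 are higher.

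Matrix genes were among the most abundant in both subpopulations, and their composition differed. Of 32 tested collagens, 15 were higher (9 at least 2-fold) and 13 lower (5 at least 2-fold), with a median of 0.03. Col3a1, a fibrillar collagen of compliant tissue, had 112170, 118345, 119498 and 108522 against 273227, 281774, 281910 and 273478 normalized counts (log2 difference 1.28 ± 0.04, adjusted p = 4.09e-14), while Col1a1 was 1.39-fold lower. Col14a1, which coats collagen fibrils, had 1689, 1678, 1753 and 1568 against 5586, 6016, 5981 and 5662 (log2 difference 1.80 ± 0.04), and its relative Col12a1 moved the opposite way, at 77272, 73872, 73900 and 73563 against 17374, 16240, 16398 and 18006 (log2 difference -2.14 ± 0.03, adjusted p = 2.34e-17). Wide differences at a mean of at least 50 normalized counts were those of Col8a1, a short-chain collagen (14654, 16577, 16004 and 15014 against 1083, 956, 1022 and 1042, log2 difference -3.92 ± 0.04), Col23a1, a membrane collagen (log2 difference 3.33 ± 0.15), and Col28a1 (804, 1009, 968 and 767 against 7079, 7066, 7082 and 7370, log2 difference 3.02 ± 0.07). For each of these collagens the libraries of the 2 subpopulations did not overlap.

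Laminin chains, elastic fibre genes and proteoglycans showed the same division by member. Lama5 and Lama1, laminin alpha chains, were 9.13-fold lower and 9.42-fold lower, and Npnt, an integrin alpha-8 ligand of basement membranes, 8.19-fold lower. Frem1, of the complex that anchors epithelium to mesenchyme, was 9.5-fold higher. Lama4 was 1.73-fold higher, and Eln (elastin), Fbln1 and Mfap2 were 3.39-fold higher, 3.79-fold higher and 4.12-fold higher. Basement membrane and elastic fibre genes counted 20 higher and 17 lower of 39 tested (median 0.23). The small leucine-rich proteoglycans Dcn and Lum were 3.48-fold higher and 5.05-fold higher, but Fmod, of the same family, had 2609, 2394, 2494 and 2409 against 321, 329, 326 and 334 normalized counts (log2 difference -2.91 ± 0.04, adjusted p = 1.24e-18). Prg4 (lubricin) had 152, 142, 130.5 and 132 against 4633, 4329, 3943 and 4201 (log2 difference 4.93 ± 0.05, adjusted p = 3.64e-19), and Tnxb, a tenascin of dermis and tendon sheath, 617, 722, 688 and 631 against 5720, 5582, 5452 and 5533 (log2 difference 3.07 ± 0.04), whereas Tnc was 5.5-fold lower. Comp, a cartilage and tendon protein, was 11.3-fold lower and Gpc3, a glypican, 9.13-fold higher. Fn1 (fibronectin) was 1.29-fold higher, although the call was lost under quantile normalization (log2 difference 0.00). Of 50 proteoglycan, hyaluronan and matricellular genes tested, 21 were higher and 24 lower, with a median of -0.07. Matrix proteases were mainly higher, 38 of 56 tested (23 at least 2-fold) against 14 lower (10 at least 2-fold), median 0.82: Mmp3, a stromelysin, was 65.2-fold higher, Mmp27, Mmp2 and Adamts15 were 27.8-fold higher, 11.5-fold higher and 9.19-fold higher, and the inhibitor Timp3 had 17348, 15926, 16309 and 17601 against 2006, 1572, 1739 and 1859 (log2 difference -3.23 ± 0.06).

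Contractile genes were lower in DPP4-positive cells almost without exception. Of 43 tested genes that SRF drives in muscle and myofibroblasts, 41 were lower, 37 of them at least 2-fold, with a median of -1.81. Mkl2, a cofactor of SRF, was the single higher gene (log2 difference 0.48 ± 0.04), and Synpo2 did not pass (log2 difference -0.08). Acta2, smooth muscle actin, had 99636, 97000, 95445 and 105636 normalized counts against 6827, 5735, 5893 and 6050 (log2 difference -4.02 ± 0.05, adjusted p = 6.32e-19). Lmcd1, a LIM-domain transcriptional cofactor, had 675, 740, 715 and 708 against 18.8, 21.6, 16.8 and 22, 34.3-fold lower (log2 difference -5.10 ± 0.09, adjusted p = 6.25e-17). Acta1 and Actg2, actins with near-identical coding sequence to Acta2, carried reads that the counting could have shared between them. The same genes overlap with markers of pericytes and vascular smooth muscle. Summed over those 16 markers the level was 159481 to 176243 in DPP4-negative and 12605 to 14267 in DPP4-positive libraries, 11 of 13 tested were lower, and Rgs5, a defining pericyte gene, was below 11 normalized counts in all 8 libraries. The part of such cells in the contractile difference was not tested.

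The promoters of these genes were read from RefSeq (build GRCm38.p6) as the window from 250 bases before to 50 after each annotated start, available for 10454 of the 13505 genes (77.4%), so the shares below are descriptions. A CArG box, the element SRF binds, was searched for by name on both strands. It was present for 11 of 37 contractile genes with a window (29.7%) and for 163 of all 10454 genes (1.56%). Among genes at least 4-fold lower in DPP4-positive cells 15 of 216 had one (6.94%), and among genes at least 4-fold higher 4 of 326 (1.23%). Stretches upstream of 4 such genes are printed on the strand of the gene, with the CArG box in capitals. They lie at chr6:112273518-112273577 (plus strand) for Lmcd1, chr2:156775278-156775337 (plus strand) for Myl9, chr10:79988519-79988578 (plus strand) for Cnn2 and chr17:46556190-46556269 (minus strand) for Srf, the last with 2 boxes.
Lmcd1: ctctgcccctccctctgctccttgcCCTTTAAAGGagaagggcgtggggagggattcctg
Myl9: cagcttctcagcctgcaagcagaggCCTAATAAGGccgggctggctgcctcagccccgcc
Cnn2: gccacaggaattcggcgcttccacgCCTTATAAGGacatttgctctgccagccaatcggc
Srf: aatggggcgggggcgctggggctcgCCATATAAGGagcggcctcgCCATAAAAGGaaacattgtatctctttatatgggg
Myl9, a myosin light chain, was 11.3-fold lower, Cnn2, a calponin, 5.08-fold lower and Srf itself 2.69-fold lower.

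Genes of YAP and TEAD signalling, which answers to stretch and cell spreading, were also mainly lower. Of 24 tested, 19 were lower, 7 at least 2-fold, and 2 higher, with a median of -0.56. The list holds the pathway's own factors and kinases, such as Yap1 and Lats1, beside its targets. Ctgf had 33308, 31728, 31474 and 33626 against 3261, 2714, 2818 and 2899 normalized counts (log2 difference -3.48 ± 0.04, adjusted p = 1.84e-18), and Cyr61 14891, 14930, 14859 and 14876 against 4330, 3676, 3707 and 4106 (log2 difference -1.92 ± 0.04). Nt5e, an ectonucleotidase included in the list as a target, went against it at 6.77-fold higher. Yap1 did not pass (log2 difference -0.06 ± 0.03, adjusted p = 0.0623), and was called without DPP4-positive replicate 4 (log2 difference -0.09, adjusted p = 0.0189). The TEAD motif CATTCC, searched on both strands, was in the window of 11 of 19 genes of the list (57.9%), 14 of 37 contractile genes (37.8%) and 1518 of all 10454 (14.5%). The 11 included the pathway's own Yap1, Wwtr1 and Tead3. Among genes at least 4-fold lower in DPP4-positive cells 47 of 216 had the motif (21.8%), and among genes at least 4-fold higher 57 of 326 (17.5%), so both shares were above that of all genes. The motif is shown in capitals for Cyr61, at chr3:145650058-145650113 (minus strand), and for Ajuba, a LIM protein that was 3.38-fold lower, at chr14:54577795-54577872 (minus strand) with 2 matches.
Cyr61: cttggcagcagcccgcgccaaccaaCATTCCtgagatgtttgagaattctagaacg
Ajuba: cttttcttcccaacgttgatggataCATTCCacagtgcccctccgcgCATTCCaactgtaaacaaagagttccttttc
Integrin subunits counted 4 higher and 10 lower of 20 tested (median -0.34), with Itga5, the fibronectin receptor chain, 3.25-fold lower and Itga7, a laminin receptor chain, 7.77-fold lower. Of 34 tested cadherins and adhesion receptors 14 were higher and 16 lower (median -0.02): Cadm3 was 9.25-fold higher, and Bcam, a laminin receptor, Pkp2, a desmosome plaque protein, and Ncam1 were 12.9-fold lower, 11-fold lower and 6.75-fold lower. Of 45 tested ion channels 19 were higher and 20 lower (median -0.03), and the mechanosensitive channel Piezo2 had 904, 906, 917 and 919 against 42.1, 37.2, 40.7 and 51.5 (log2 difference -4.39 ± 0.08, adjusted p = 1.33e-16). Piezo1, the broadly expressed relative, was 1.57-fold lower, Trpv2 6.95-fold lower, and Scn7a, a sodium-sensing channel, 8.13-fold higher. Of the 2-pore potassium channels Kcnk2 was 6.29-fold lower and Kcnk5 5.01-fold higher, and the water channel Aqp1 was 6.76-fold lower.

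**Figure D3:**
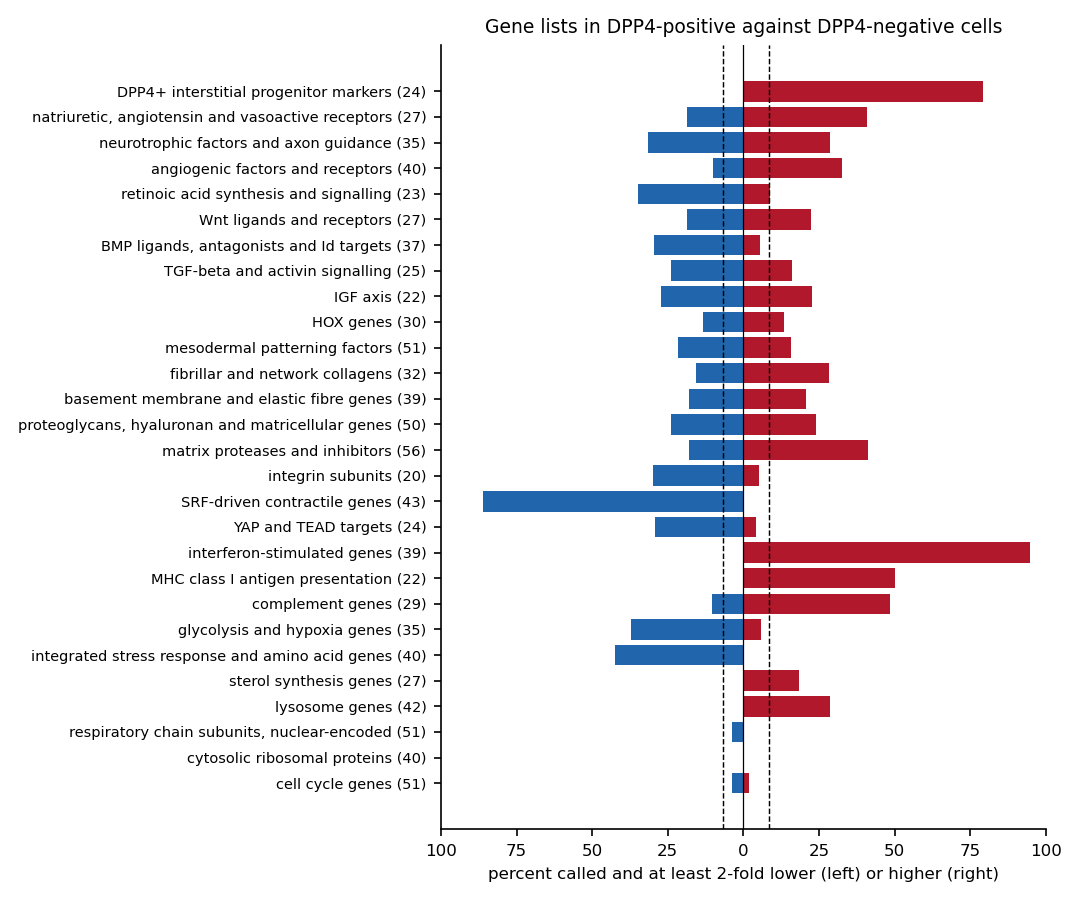
For 28 gene lists (tested members in parentheses), bars give the percent of tested members that were called and at least 2-fold higher (right, red) or lower (left, blue) in DPP4-positive cells. The dashed lines mark the same percent over all genes tested, 8.54% higher and 6.89% lower. Interferon-stimulated genes (37 of 39) and contractile genes (37 of 43) extend farthest, in opposite directions.

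All 39 tested interferon-stimulated genes passed and were higher in DPP4-positive cells, 37 at least 2-fold, with a median log2 difference of 2.41. Isg15, a ubiquitin-like protein, had 38.9, 53.5, 59.4 and 49.4 normalized counts in DPP4-negative libraries and 1819, 431, 965 and 713 in DPP4-positive ones (log2 difference 4.08 ± 0.29, adjusted p = 2.28e-09). Irf7, a transcription factor that amplifies the response, had 54.1, 78.9, 52.1 and 39.9 against 2705, 876, 2326 and 2251 (log2 difference 5.08 ± 0.27, adjusted p = 5.19e-11). Ifit1, which binds viral RNA, had 20.6, 40.9, 37 and 33.2 against 3847, 853, 1631 and 1299 (log2 difference 5.63 ± 0.32, adjusted p = 1.45e-10). In all 3 genes replicate 1 was the highest and replicate 2 the lowest of the DPP4-positive libraries, and the 2 subpopulations did not overlap. The sum over the list was 15181, 16399, 16617 and 15460 in DPP4-negative and 86300, 43797, 65133 and 58508 in DPP4-positive libraries. Without DPP4-positive replicate 1 all 39 were still called higher, with a median of 2.20. Ifnb1, the gene of interferon beta, had 1 read in all DPP4-negative and 1 in all DPP4-positive vehicle libraries. Of 27 tested interferon receptors and RNA sensors 19 were higher, 8 of them at least 2-fold, and 4 lower, 1 at least 2-fold, with a median of 0.43. The receptor gene Ifnar1 was 1.21-fold higher.

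Macrophage and leukocyte markers were read beside this list. Of 25 markers 10 passed the filter, and 3 were higher and 2 lower. Without DPP4-positive replicate 1 these were 2 and 3, and without DPP4-negative replicate 4 the higher ones were 6. Their sum was 426, 589, 554 and 1098 in DPP4-negative and 1410, 674, 577 and 670 in DPP4-positive libraries. It was highest in DPP4-positive replicate 1, the library with the highest interferon-stimulated sum, and next highest in DPP4-negative replicate 4, whose interferon-stimulated sum was in the range of its group. Ptprc (CD45) had 5.34, 7.79, 6.72 and 8.8 against 22.4, 8.92, 10.6 and 12.7 and Mrc1, a macrophage receptor, 7.62, 26.3, 14.6 and 56.2 against 387, 93.6, 32.8 and 90.4. Cd3e, a T cell gene, had 1 read in each group of libraries. The part of leukocytes in the interferon-stimulated levels was not tested.

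**Figure D4:**
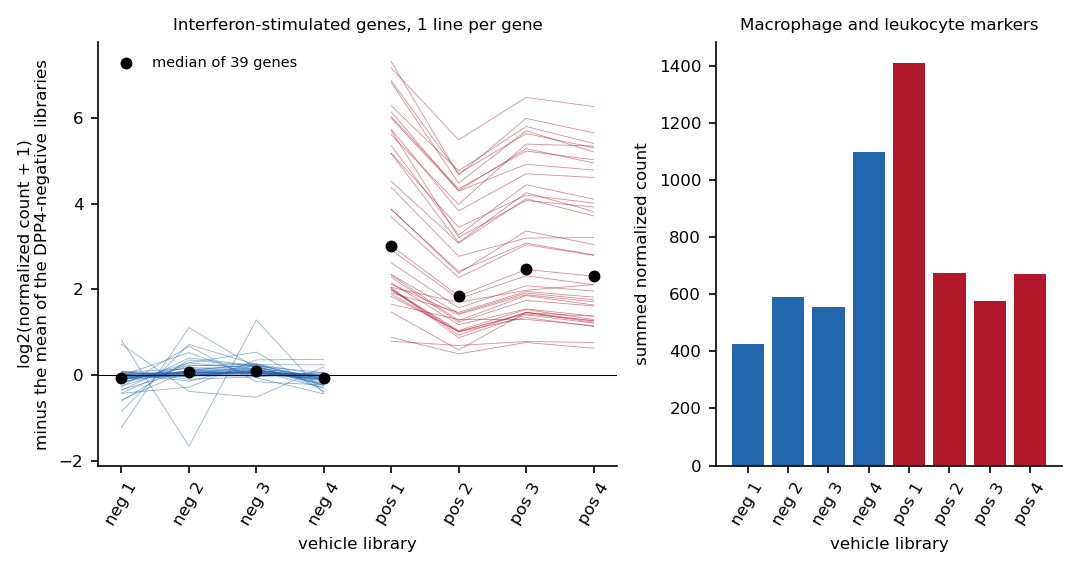
Left, each line is 1 of the 39 tested interferon-stimulated genes, as log2(normalized count + 1) minus its mean in the DPP4-negative libraries, for replicates 1 to 4 of each subpopulation (neg, pos), with the median as a black dot; right, the summed normalized count of the macrophage and leukocyte markers in the same libraries. Every gene is higher in all DPP4-positive than in all DPP4-negative libraries, and replicate 1 is the highest DPP4-positive library in both panels.

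The core of the interferon-stimulated response element, searched as GAAANNGAAA on both strands, was in the promoter window of 13 of 28 genes of the list with a window (46.4%), 4 of 18 MHC class I genes (22.2%) and 391 of all 10454 (3.74%). Among genes at least 4-fold higher in DPP4-positive cells 48 of 326 had it (14.7%), and among genes at least 4-fold lower 7 of 216 (3.24%). It is the site bound by complexes that hold STAT2 and IRF9, and by IRFs alone. The stretches at chr4:156200850-156200921 (minus strand) for Isg15, chr19:34640760-34640838 (plus strand) for Ifit1 and chr10:128270251-128270310 (plus strand) for Stat2 show it in capitals, in overlapping copies in Isg15, in 2 copies in Ifit1 and in 1 in Stat2, on the gene's strand or its complement.
Isg15: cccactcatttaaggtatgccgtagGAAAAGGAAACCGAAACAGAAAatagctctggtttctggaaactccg
Ifit1: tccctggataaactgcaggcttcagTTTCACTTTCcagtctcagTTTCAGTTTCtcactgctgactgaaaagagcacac
Stat2: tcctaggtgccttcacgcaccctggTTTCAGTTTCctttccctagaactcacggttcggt
Stat2 had 525, 526, 577 and 523 normalized counts against 4348, 1929, 2963 and 2658 (log2 difference 2.41 ± 0.16).

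**Figure D5:**
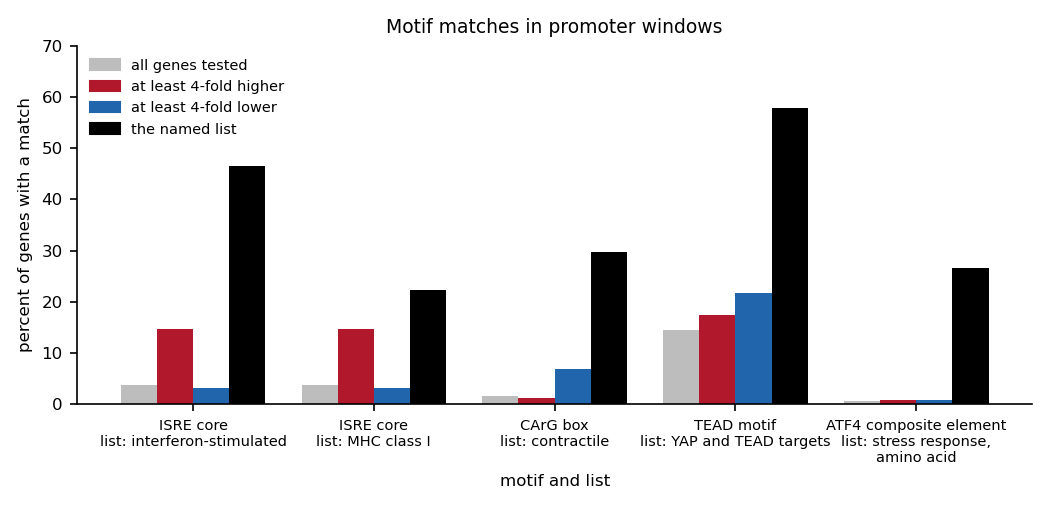
Percent of genes with at least 1 match of a motif, on either strand, in the RefSeq window from 250 bases before to 50 after the start: all genes tested (grey), genes called and at least 4-fold higher (red) or lower (blue) in DPP4-positive cells, and the list named under each group of bars (black). The interferon-stimulated list reaches 46.4% for the ISRE core and the YAP and TEAD list 57.9% for CATTCC, which 14.5% of all genes also hold.

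Antigen presentation and complement genes were higher in the same libraries. Of 22 tested genes of MHC class I presentation, 18 were higher, 11 at least 2-fold, and 3 lower, with a median of 1.0. B2m, the invariant chain, had 10042, 11615, 10819 and 9797 against 24589, 22550, 24965 and 28785 normalized counts (log2 difference 1.25 ± 0.06, adjusted p = 2.22e-11), and H2-T23, a non-classical class I gene, 371, 419, 425 and 376 against 2847, 1819, 2809 and 2761 (log2 difference 2.66 ± 0.11). H2 genes are similar to each other, so the division of reads between them is uncertain. Psmb9, an immunoproteasome subunit, was 3.43-fold higher and Tap1, a peptide transporter, 2.32-fold higher. Of 29 tested complement genes 21 were higher (14 at least 2-fold) and 5 lower (3 at least 2-fold), with a median of 0.88. Cfb, factor B of the alternative pathway, had 733, 949, 914 and 744 against 11370, 10002, 11132 and 12215 (log2 difference 3.75 ± 0.08, adjusted p = 2.8e-16), and C3, the central component, 13303, 15309, 14169 and 12359 against 48431, 51595, 50914 and 50187 (log2 difference 1.87 ± 0.05). Cfd (adipsin), the protease that activates factor B and a product of fat cells, was lower, at 27153, 31978, 29606 and 27946 against 5912, 7057, 6791 and 6391 (log2 difference -2.16 ± 0.05). C2, a convertase component, and Clu, an inhibitor of the terminal complex, were 5.63-fold higher and 6.59-fold higher. Of 24 tested NF-kB and acute-phase genes 16 were higher and 7 lower (median 0.29). Saa3, an acute-phase apolipoprotein, had 44.2, 57.4, 52.6 and 51.4 against 4573, 4393, 4249 and 4131 (log2 difference 6.38 ± 0.06, adjusted p = 1.4e-19), and Lcn2, which binds bacterial siderophores, and Lbp, which binds endotoxin, were 7.34-fold higher and 6.06-fold higher. Tnfaip3, an inhibitor of NF-kB, was 5.32-fold lower. Of 36 tested immediate early genes 10 were higher and 18 lower (median -0.16), with Egr2 6.38-fold higher, Nr4a1 2.68-fold lower and Spry1, an antagonist of growth factor signalling, 4-fold lower.

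HOX genes, which keep a cell's position along the body axis, and other patterning factors differed gene by gene. The counting's use of strand is not stated, so antisense transcripts of the HOX clusters cannot be told apart from the genes. Of 30 tested HOX genes 10 were higher, 7 lower and 13 did not pass, with a median of 0.03, and 4 were at least 2-fold higher and 4 at least 2-fold lower. The share called was 56.7%, below the 74.3% of all genes tested. Hoxc13 had 446, 383, 416 and 419.5 against 93.2, 76.5, 96.5 and 78.6 normalized counts (log2 difference -2.26 ± 0.08, adjusted p = 4.9e-13), Hoxb9 was 2.43-fold lower, and Hoxd8 was 2.77-fold higher. Hoxc10 and Hoxa5, often used to tell fat depots apart, were 1.34-fold lower and 1.32-fold higher. Of 51 tested mesodermal patterning factors 22 were higher and 16 lower, median 0.19, and the share called, 74.5%, was that of all genes to within 1%. The forkhead genes Foxc1 and Foxc2 were both lower, Foxc1 at 2241, 2357, 2520 and 2247 against 185, 164, 195 and 172 (log2 difference -3.70 ± 0.05, adjusted p = 6.95e-18) and Foxc2 13.1-fold lower. Sox11 was 8.92-fold lower and Tcf21, a marker of mesenchymal progenitors, 3.53-fold lower. Eya4, Tbx5 and Osr2, regulators of limb and organ mesenchyme, were 5.14-fold higher, 3.82-fold higher and 3.6-fold higher. Tbx15, a marker of subcutaneous fat, was 1.15-fold higher, and Shox2 did not pass (log2 difference -0.04 ± 0.05, adjusted p = 0.429).

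Lipid storage genes were mainly lower in DPP4-positive cells. The list of adipogenic transcription factors, which mixes drivers and inhibitors of adipogenesis, was divided. Of 29 tested genes of this list 15 were higher, none at least 2-fold, and 8 lower, 4 at least 2-fold, with a median of 0.09. The lower ones include Wisp2, which encodes a matricellular protein and not a transcription factor. Pparg had 1251, 1418, 1305 and 1239 against 662, 746, 757 and 695 normalized counts (log2 difference -0.86 ± 0.05, adjusted p = 1.51e-10) and Cebpa was 1.41-fold lower, while Zfp521, an inhibitor of the adipogenic fate, was 1.72-fold higher. Zfp423, a factor of committed preadipocytes, did not pass (log2 difference -0.01 ± 0.06, adjusted p = 0.918). Of 31 tested lipid storage and adipocyte genes 7 were higher, none at least 2-fold, and 19 lower, 12 at least 2-fold (median -0.39). Plin4, a lipid droplet coat protein, was 4.9-fold lower and Scd1, a fatty acid desaturase, 3.52-fold lower. Scd2 and Lpl were higher at 1.66-fold and 1.37-fold. Ucp1 had 5 reads in each group of vehicle libraries and was not tested. Of 19 tested thermogenic genes 6 were higher and 8 lower (median -0.05), among them Dio2, which activates thyroid hormone, 3.08-fold higher and Ppargc1a, a coactivator of mitochondrial genes, 1.31-fold lower. The Ppargc1a call was lost without DPP4-negative replicate 2 (adjusted p = 0.0533) or DPP4-positive replicate 1 (0.0626), and with DESeq2 (0.0773). Of 12 mature adipocyte markers 11 were tested, 9 were lower and none higher, and their sum was 28521 to 33069 in DPP4-negative and 11512 to 12838 in DPP4-positive libraries.

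Glycolysis and amino acid metabolism genes were mainly lower in DPP4-positive cells. Of 35 tested glycolysis and hypoxia genes 26 were lower, 13 at least 2-fold, and 6 higher, with a median of -0.76. Slc16a3, a lactate exporter, had 1836, 1690, 1632 and 1838 against 186, 181, 198 and 186 normalized counts (log2 difference -3.21 ± 0.05, adjusted p = 8.5e-18), and Hk2, which traps glucose in the cell, Pdk1, which holds pyruvate from the mitochondrion, and Ldha were 3.21-fold lower, 2.96-fold lower and 2.38-fold lower. Eno2, Ndrg1 and Adm, also in this list, differed in the other direction, at 3.21-fold higher, 6.08-fold higher and 1.59-fold higher. Of 40 tested genes of the integrated stress response, which ATF4 drives when amino acids or heme are short, 37 were lower, 17 at least 2-fold, and 2 higher, with a median of -0.79. Chac1, which degrades glutathione, had 250.1, 243, 255 and 266 against 33.2, 29, 29.2 and 38.9 (log2 difference -2.93 ± 0.10, adjusted p = 2.57e-13). Mthfd2 of the mitochondrial folate cycle, the pseudokinase Trib3 and Cth, which makes cysteine, were 4.56-fold lower, 4.42-fold lower and 4.85-fold lower. Asns, asparagine synthetase, was 2.27-fold lower and Atf4 itself 1.58-fold lower. The ATF4 composite element, searched as TGATGCAA on both strands, was in the window of 9 of 34 genes of this list (26.5%) and of 75 of all 10454 (0.717%). Its share was alike among genes at least 4-fold lower (2 of 216, 0.926%) and at least 4-fold higher (3 of 326, 0.92%) in DPP4-positive cells. The element is shown in capitals upstream of Chac1, at chr2:119351024-119351081 (plus strand), and Slc7a11, at chr3:50443628-50443704 (minus strand) with 2 copies, on the gene's strand or its complement.
Chac1: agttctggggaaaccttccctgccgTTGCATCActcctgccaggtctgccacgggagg
Slc7a11: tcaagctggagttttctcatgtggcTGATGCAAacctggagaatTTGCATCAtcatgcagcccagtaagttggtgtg
Slc7a11, the cystine importer, was 2.35-fold lower (log2 difference -1.24 ± 0.09).

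Lysosomal genes were higher, most of them by less than 2-fold. Of 42 tested, 40 were higher, 12 at least 2-fold, with a median of 0.78, and Atp6v0d1 was the single lower one (log2 difference -0.13 ± 0.03). Gaa, acid alpha-glucosidase, had 3521, 3506, 3576 and 3378 against 9748, 9659, 9676 and 10027 normalized counts (log2 difference 1.48 ± 0.03, adjusted p = 5.54e-17), Ctsk, a collagen-degrading cathepsin, was 3.09-fold higher, and Gla and Naglu were 2.83-fold higher and 2.75-fold higher. Tfeb, a regulator of lysosomal genes, was 1.23-fold higher, and its motif GTCACGTGAC was in none of 33 windows of the list and in 82 of all 10454 (0.784%). Sterol synthesis genes were higher in 24 of 27 tested (5 at least 2-fold, median 0.81). Among antioxidant genes 24 of 35 were higher and 10 lower (median 0.25). The metallothioneins Mt1 and Mt2 were 2.46-fold higher and 4.01-fold higher, and Gpx1 was 2.18-fold lower. All 40 ribosomal protein genes (median -0.42) and 50 of 51 respiratory chain genes (median -0.37) were lower, 2 of the latter at least 2-fold. Cell cycle genes were lower in 40 of 51 and higher in 4, with a median of -0.43: Rrm2, of nucleotide synthesis, was 2.35-fold lower and Mki67 1.17-fold lower. Cdkn1c, an inhibitor of cyclin-dependent kinases, had 18.3, 14.6, 12.3 and 15.6 against 198, 201, 198 and 231 (log2 difference 3.69 ± 0.13, adjusted p = 2.07e-13), and Cdkn2a was 2.08-fold lower.

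Markers of other cell types held single genes at higher levels, while the defining ones were near 0. The skeletal muscle markers summed to 1142 to 1463 in DPP4-negative and 260 to 303 in DPP4-positive libraries, most of it Acta1, which was 16.6-fold lower, and Des (desmin), which was 2.44-fold lower. The mesothelial markers summed to 740 to 936 against 258 to 324, most of the former being Krt19, a keratin that was 6.6-fold lower. The Schwann cell markers summed to 197 to 242 against 250 to 305. The part of such cells in any result was not tested. Mesothelial (Msln, Upk3b), skeletal muscle (Pax7, Myod1, Ckm), Schwann (Sox10) and adipocyte (Lep) defining genes had fewer than 5 normalized counts in every vehicle library. The summed epithelial markers were 80.8 to 105 in DPP4-negative replicates 1 to 3 and 179 in replicate 4, where Epcam had 14.9 normalized counts and was listed at 0 in the other 3, and 28.7 to 37.2 in the DPP4-positive libraries.

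The isoproterenol libraries give the same contrast in cells the vehicle test did not use. There 72.2% of 13284 genes tested were called. Of all 4564 genes called higher in vehicle and tested in both, 2478 (54.3%) were called higher there and 878 lower, and of 5065 called lower, 2691 (53.1%) were called lower and 1288 higher. Of 997 genes at least 2-fold higher in vehicle and tested in both, 767 were called higher there and 55 called lower, and of 806 at least 2-fold lower, 627 were called lower and 93 higher. Of the genes at least 8-fold higher or lower in vehicle, 170 of 177 and 81 of 86 were called in the same direction. Aldh1a2 (log2 difference -7.86), Ace (5.99), Piezo2 (-4.86), Acta2 (-4.10) and Prg4 (4.31) kept the direction they had in vehicle. Isg15 had 1.68 there against 4.08 in vehicle, Ret -1.03 against -5.23, and Inhba 0.24 against -3.15. Lmcd1 had 0.56 there against -5.10, and Slc16a3 0.03 against -3.21. Whether these differences depend on the treatment was not tested here.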

How the data were processed

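RNA from PDGFRb+ adipose progenitors was sequenced in 16 libraries, 4 for each of 4 groups, of which the 8 vehicle libraries were tested here. Per the labels' protocols, 500 ng of total RNA entered the NEBNext Ultra II kit, and no label states whether the counting used strand. Per the submitters' processing notes, the tools were DESeq2 1.6.3, featureCounts 1.4.6, HISAT2 2.0.1 and Trim Galore 0.4.1, and the builds GRCm38 and mm10. The authors deposited 1 table of normalized counts per gene, a signal in which each library's reads are divided by 1 factor, with 27179 entries. Of these, 958 had no symbol and held 0.0947% of the normalized counts, and 26 symbols that had been turned into dates were restored. RefSeq's GRCm38.p6 table matched 25275 entries and gave their coordinates.

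Dividing each library's values by what 1 read is worth in it gave whole reads for 100.0% of 280334 values above 0, within 0.001. Reads per library were 16479650 to 28627223 in the 8 vehicle libraries and 9823799 to 22121496 in the 8 isoproterenol libraries. Genes with a normalized count of at least 10 in at least 4 of the 8 libraries were fitted with limma 3.58.1 (R 4.3.3, intensity-dependent trend) on log2(normalized count + 1), and p-values were adjusted by Benjamini-Hochberg over all genes tested, with 0.05 as the threshold. On simulated data with 200 changed genes among 13411, 198 were recovered, with 6 false calls. Recovery where most genes differ, as in the vehicle libraries, was not tested. edgeR 4.0.16 and DESeq2 1.42.0 on the recovered reads, other pseudocounts (0.5 and 5), filters and quantile normalization, all 16 libraries in the fit, a replicate block and leaving out each library were alternatives. edgeR's quasi-likelihood test called 5032 genes higher and 5048 lower. Figures and counts were made with Python 3.11.15, pandas 2.3.3, numpy 2.4.6, scipy 1.17.1 and matplotlib 3.10.9.

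The members and the gene lists were chosen with earlier results of these data known. Genes named in the text come from a written rule: the lists' anchor genes, up to 4 called members per list and direction with the largest differences and a mean of at least 50 normalized counts, the 15 highest and 15 lowest differences over all genes, the 6 largest absolute changes per direction, up to 4 genes per direction with no read in 1 group, and the 4 per direction with the smallest relative error. Not all of them are printed. Has1, Synpo2, Cnn2, Srf and Stat2 fall outside the rule and were chosen after their values were seen.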

Additional observations from a re-analysis of the deposited data

Results flagged for a closer look

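Of 166 groups of 4 libraries whose values are printed or summed, 9 held a library that stood apart from the other 3 by Dixon's test at its 95% critical value, where chance gives about 1 in 20. In DPP4-positive libraries replicate 1 stood apart for Il1rl1 (2682 normalized counts, the others 2165 to 2250) and for the summed macrophage and leukocyte markers (1410, the others 577 to 674). Replicate 2 was the low one for H2-T23 (1819, nearest 2761) and for Stc1 (1315, nearest 1514). Replicate 4 was high for Cdkn1c (231, nearest 201), Col28a1 (7370, nearest 7082) and Gas1 (8696, nearest 8179). In DPP4-negative libraries replicate 1 was high for Col12a1 (77272, nearest 73900) and replicate 3 for Stat2 (577, nearest 526). None of these values brought the 2 subpopulations' libraries into overlap for the 8 genes.

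For 6 named genes the subpopulations differed by at least 2-fold in opposite directions in vehicle and in isoproterenol libraries, with groups that did not overlap in either. The difference between the treatments was not tested. Bmp4 had a log2 difference of -2.41 in vehicle and 2.81 under isoproterenol, and Sox11, a transcription factor of early mesenchyme and neurons, -3.16 and 2.88. Slc7a11 had -1.24 and 2.85, and Il6 -1.17 and 2.35. Hbegf had -1.66 and 1.15, and Hk2 -1.68 and 1.07.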

How the results depend on the processing

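The 4802 genes higher and 5233 lower in DPP4-positive cells stayed within 1.5 times of these counts under every alternative run. The counts were 4630 and 5346 with quantile normalization, 5032 and 5048 with edgeR, 4657 and 4744 with DESeq2, 5357 and 5516 of 22096 genes with no filter, 4193 and 4826 of 11637 with a minimum of 50, and 4332 and 4839 with all 16 libraries in the fit. Leaving out each library gave 4595 to 4695 higher and 5071 to 5127 lower, of which 1136 to 1179 and 926 to 947 were at least 2-fold. The share of higher among called genes was 46.4% to 49.9%, and the median of all genes was -0.03 to 0.04. Normalization between libraries places the typical gene near 0, so neither value tests for a shift of most genes. Counts of at least 2-fold differences ran from 859 higher and 705 lower (minimum of 50) to 1723 and 1279 (no filter). With the replicate number as a block 4795 were higher and 5217 lower. The numbers did not pair the libraries: same-numbered libraries had correlations of -0.0435, -0.0162, 0.1 and -0.0244, and not every library correlated best with its own number. Under the block Has1 (adjusted p = 0.0347) and Yap1 (0.0496) passed. Of 4310 recomputed gene values 4293 kept their direction and side of the threshold. Those that changed sign were of genes that were not called: Zfp423 had 0.01 with edgeR and with DESeq2, and -0.04 to 0.03 when 1 library was left out, and Crabp1 had -0.16 to 0.04 when 1 library was left out. Has1 also passed with all 16 libraries in the fit (adjusted p = 0.0202). The cause of these changes was not tested. Interferon-stimulated genes were all called higher under every alternative, with medians of 2.20 to 2.59 when 1 library was left out. Lists whose higher and lower counts were close changed sides: HOX genes to 9 and 10 with quantile normalization, neurotrophic genes to 15 and 16 with quantile normalization, retinoic acid genes to 12 and 10 and ion channels to 22 and 21 with no filter, and thermogenic genes to 5 and 4 with a minimum of 50. At a few reads per library, as for Ucp1 and Ifnb1, a difference was not detectable at this depth.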
